A study of Rattus norvegicus with 16 samples.

Results

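Trh encodes the precursor of thyrotropin-releasing hormone (TRH), and it was followed across 16 expression arrays of rat pontine nuclei taken after an injury to the axons of their neurons. The array carried 2 probe sets with the gene symbol Trh, M36317_s_at and M23643cds_s_at, among 8740 probe sets that were not array controls. Both were kept, and both were among the 4413 probe sets called Present on at least 3 arrays. Trh had been picked out because of its levels on these same arrays, so its own values are given here as a description, without a test.

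TRH is an amidated tripeptide. Its precursor holds several copies of the sequence that prohormone convertases and a carboxypeptidase cut out, glutaminyl cyclase closes at its first residue and peptidylglycine monooxygenase amidates at its last. Neurons of the hypothalamus release it to the pituitary, where it raises the secretion of thyrotropin and prolactin, and neurons elsewhere in the brain use it as a neuromodulator through G protein-coupled receptors.

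The pontine nuclei are brainstem cell groups whose neurons project to the cerebellum, and their axons had been exposed at a distance from the cell bodies to saline, to lysolecithin, which lyses membranes and demyelinates axons, or had been transected. RNA came from the lesion side on days 4, 10 and 37 after each of the 3 interventions (9 arrays), from the contralateral side on days 10 and 37 (6 arrays) and from a healthy control (1 array). Each condition had 1 array, so a difference between 2 arrays has no replicate check, and the number of arrays limits the precision. Strain, sex, age, the way each lesion was made and the number of animals behind an array are not given in the sources used here. The 6 contralateral arrays and the healthy control are called the 7 controls below; the contralateral arrays carried the intervention on the other side, so the healthy control alone came from an animal without one.

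The values are MAS5 signals, linear intensities scaled by the authors to the same trimmed mean on every array, which was 800 when recomputed. Between 39.9% and 47.1% of the probe sets of an array were called Present, the call MAS5 gives to a probe set detected above its mismatch probes. RNA integrity was read from the 3′/5′ ratio of the beta-actin probe sets, which was 1.07 to 1.42 on the transection lesion arrays, 1.20 to 1.44 after lysolecithin, 1.41 to 1.68 after saline and 1.04 to 1.53 on the 7 controls. For GAPDH the ratio was 1.069 to 1.188, 1.029 to 1.162, 1.093 to 1.158 and 1.065 to 1.265 in the same order, so saline did not stand apart there. The part of these ratios in the differences between transection and saline was not tested. Across probe sets, r between arrays was 0.949 to 0.979 leaving out the healthy control, whose own r with them was 0.925 to 0.948.

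The promoter of Trh is shown because the gene's level moved together with that of a small group of other genes. In the RefSeq annotation of the rat assembly GRCr8 the 250 bases before the start of Trh lie at chr4:126301763-126302012 on the minus strand. They are written 5′ to 3′ along the gene, with the motifs found in capitals.
Trh promoter: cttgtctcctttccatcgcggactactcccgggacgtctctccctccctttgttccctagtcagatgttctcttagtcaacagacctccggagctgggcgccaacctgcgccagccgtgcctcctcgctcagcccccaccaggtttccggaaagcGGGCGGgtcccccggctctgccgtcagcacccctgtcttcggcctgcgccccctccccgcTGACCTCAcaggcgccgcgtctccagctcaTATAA
The motifs were searched on both strands, and no match overlapped another in this window. GGGCGG, a GC box, lay 95 to 90 bases before the start and is found in 30.5% of 33469 rat promoters of the same length. TGACCTCA, which differs by 1 base from the cAMP response element, lay 35 to 28 bases before the start and is found in 2.31% of them. TATAA occupied bases 5 to 1 before the annotated start and is found in 24.0%. The full cAMP response element TGACGTCA (1.59% of promoters) and the AP-1 motif TGANTCA (6.34%) were not among the letters of this window.

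The level of Trh was high on 4 arrays, the lesion-side arrays of transection and lysolecithin on days 4 and 10. On M36317_s_at, the probe set with the higher mean signal, the transection lesion side stood at 4829.2 on day 4, 5639.3 on day 10 and 817.5 on day 37. The lysolecithin lesion side stood at 2480.9, 1601.2 and 599.6 on the same days. The saline lesion side stood at 726.0, 605.5 and 414.3. On each day the transection array was the highest of the 3 and the saline array the lowest.

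The control arrays were low with a single exception. The healthy control had a Trh signal of 440.6. On the contralateral side the signals on days 10 and 37 were 378.7 and 518.6 after saline, 707.6 and 594.4 after lysolecithin, and 1394.0 and 448.0 after transection. The day 10 contralateral array of transection thus lay far above the other 6 controls, which ranged from 378.7 to 707.6. The early transection and lysolecithin lesion arrays lay above all 7 controls, while the 3 saline lesion arrays and the day 37 arrays of all interventions lay within their range. Without the transection day 10 contralateral array, transection day 37 (817.5) and saline day 4 (726.0) lay above the other 6 controls as well.

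**Figure D1:**
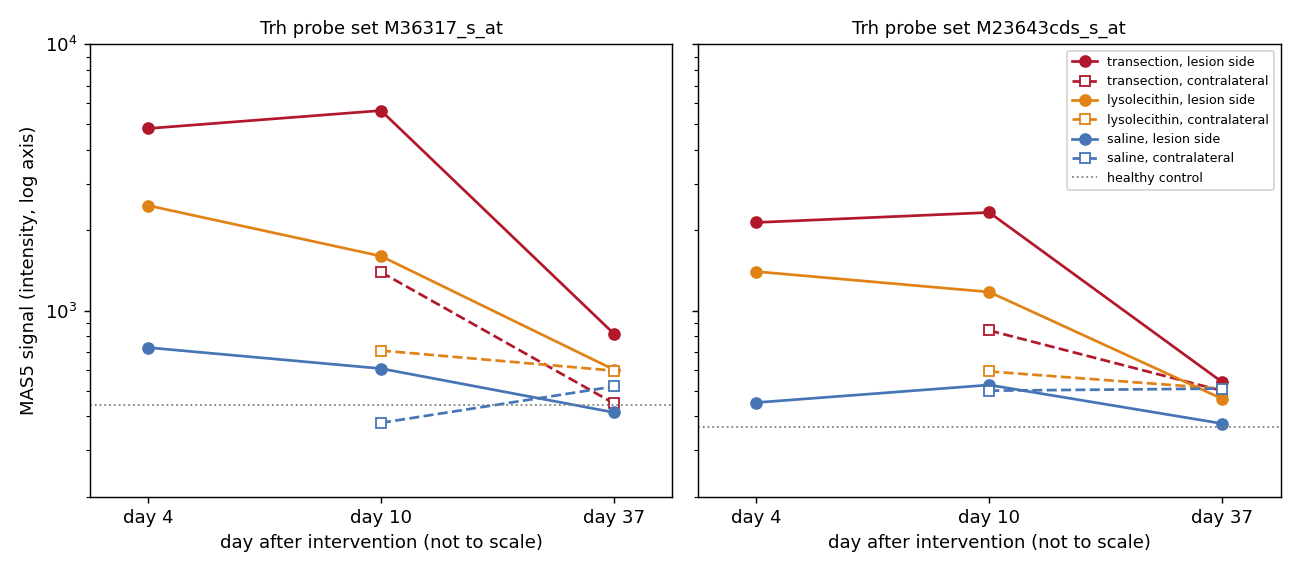
MAS5 signal of each Trh probe set on a log axis against the day after the intervention, with filled circles for the lesion side, open squares for the contralateral side and a dotted line for the healthy control. Each point is 1 array. On M36317_s_at the transection lesion side goes from 4829.2 and 5639.3 to 817.5 on day 37, and the transection contralateral array of day 10 stands at 1394.0.

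The second probe set, M23643cds_s_at, showed the same course over a smaller range. Its lesion-side signals on days 4, 10 and 37 were 2142.3, 2335.9 and 538.4 after transection. They were 1400.9, 1174.0 and 466.0 after lysolecithin and 451.3, 525.4 and 376.2 after saline. Again the 4 early transection and lysolecithin lesion arrays were above every other array. The healthy control had 364.0, and the contralateral arrays of days 10 and 37 had 500.1 and 509.3 after saline, 590.6 and 508.4 after lysolecithin, and 841.7 and 499.4 after transection. The day 10 transection array was again the highest control. M23643cds_s_at was called Present on 16 of 16 arrays, and M36317_s_at on 15 of 16, with a Marginal call on the transection day 37 contralateral array.

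Ordered by the signal of M36317_s_at, the arrays ran from transection day 10 and day 4 lesion through lysolecithin day 4 and day 10 lesion to transection day 10 contralateral, and M23643cds_s_at gave the same first 5 in the same order. With no second array of any condition, the spread of the 7 controls is the nearest measure of error, an SD of 0.62 in log2 signal for M36317_s_at, or 0.32 for the 6 without the transection day 10 contralateral array. The 2 highest arrays differed by 0.22, less than either SD. Transection day 4 exceeded lysolecithin day 4 by 0.96, more than either SD. Lysolecithin day 4 exceeded lysolecithin day 10 by 0.63, about as much as the larger SD. On M23643cds_s_at lysolecithin day 10 differed from day 4 by -0.25, within that probe set's control SD of 0.35. A difference between 2 arrays varies more than a single array does, so these SDs understate its error. Lysolecithin day 10 lesion and transection day 10 contralateral differed by less than either SD, and the latter exceeded the next array, transection day 37 lesion, by more than either. From the transection day 37 lesion array (817.5) down to the saline day 10 contralateral array (378.7), no 2 neighbouring arrays differed by as much as the smaller SD.

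By group, the mean log2 signal of M36317_s_at was 11.5 ± 1.53 (SD, n = 3 days) on the transection lesion side, 10.4 ± 1.03 (SD, n = 3) after lysolecithin, 9.19 ± 0.40 (SD, n = 3) after saline and 9.23 ± 0.62 (SD, n = 7) on the controls. The wide SDs after transection and lysolecithin hold the difference between the early days and day 37. For M23643cds_s_at the means were 10.5 ± 1.17, 9.87 ± 0.84, 8.85 ± 0.23 and 9.09 ± 0.35 in the same order. Saline differed from the controls by less than the SD of the controls on both probe sets. Over all 16 arrays the log2 signal spanned 3.84 on M36317_s_at, the 21st widest range of the 4413 tested probe sets, and 2.63 on M23643cds_s_at, against a median range of 0.92.

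Set against the saline array of the same day, transected axons had the largest Trh differences. On the log2(signal + 16) scale, which slightly understates folds, M36317_s_at was 6.53-fold higher on day 4, 9.10-fold on day 10 and 1.94-fold on day 37. M23643cds_s_at was 4.62-fold, 4.34-fold and 1.41-fold higher. The early differences were thus several times those of day 37. A difference of 2-fold or more upwards was found for 1.72% of probe sets on day 4, 1.45% on day 10 and 0.861% on day 37. M36317_s_at had the 4th, 2nd and 44th highest ratio of 4413 on these days. Since Trh was chosen on such differences, nothing further is read from these ranks.

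Lysolecithin gave the same direction with smaller values. Against saline, M36317_s_at was 3.37-fold higher on day 4, 2.60-fold on day 10 and 1.43-fold on day 37, beside 2.92%, 1.04% and 0.657% of probe sets at 2-fold or more. M23643cds_s_at was 3.03-fold, 2.20-fold and 1.23-fold higher. Transection over lysolecithin gave 1.94-fold, 3.50-fold and 1.35-fold for M36317_s_at and 1.52-fold, 1.98-fold and 1.15-fold for M23643cds_s_at, where 1.09%, 0.612% and 0.861% of probe sets reached 2-fold. The gap between cut and demyelinated axons was thus widest on day 10 on both probe sets. These 3 sets of ratios share arrays with each other and are not separate lines of evidence.

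In the linear model over the 9 lesion-side arrays with day as a term, Trh (M36317_s_at) was 4.86-fold higher after transection than after saline (log2 difference 2.28, SE 0.32) and 2.32-fold higher after lysolecithin (1.22, SE 0.32). For M23643cds_s_at the values were 3.05-fold (1.61, SE 0.27) and 2.02-fold (1.01, SE 0.27). These errors come from a moderated estimate of the spread shared by the 3 interventions, so they are not the day-to-day spread of each difference. Over the 3 days the SD of the log2 difference on M36317_s_at was 1.18 for transection against saline. For lysolecithin against saline it was 0.63. Against the 7 controls the transection lesion side was 4.73-fold higher on M36317_s_at (log2 difference 2.24, SE 0.51) and 2.59-fold on M23643cds_s_at (1.37, SE 0.38). Without the transection day 37 array the first difference was 3.13 on the log2 scale. The order transection over lysolecithin over saline on all 3 days was shown by both Trh probe sets, and by 64 of the 4413 tested probe sets (1.45%). Lesion arrays of transection and lysolecithin on days 4 and 10 above all other 12 arrays were found for both Trh probe sets and for 29 probe sets in all (0.657%).

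The time course was steep after day 10. Between days 4 and 10 the transection lesion side went up 1.17-fold on M36317_s_at and 1.09-fold on M23643cds_s_at, less than the SD of the controls, while lysolecithin was 1.54-fold and 1.19-fold lower on day 10. From day 10 to day 37 the transection lesion side was 6.79-fold lower on M36317_s_at (log2 difference -2.76) and 4.24-fold lower on M23643cds_s_at (-2.08). Only 1 tested probe set had a lower ratio than M36317_s_at in that pair of arrays. Lysolecithin was 2.63-fold and 2.47-fold lower on day 37 than on day 10, and saline differed by -0.53 and -0.47 on the log2 scale. On day 37 lysolecithin was within the range of the controls on both probe sets. Transection was above 6 of the 7 controls on M36317_s_at, and below 2 of them on M23643cds_s_at.

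No contralateral array was analysed for day 4, so the healthy control is the reference there. M36317_s_at was 10.6-fold above it after transection, 5.47-fold after lysolecithin and 1.63-fold after saline. M23643cds_s_at was 5.68-fold, 3.73-fold and 1.23-fold above it. These ratios are larger than those against saline, and this array stood apart from the others: 7.86%, 5.82% and 7.36% of all probe sets were 2-fold or more higher in the 3 comparisons with it.

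Lesion and contralateral nuclei of the same intervention and day could be set side by side on days 10 and 37. On day 10 the lesion side exceeded the contralateral side 4.01-fold after transection, 2.24-fold after lysolecithin and 1.58-fold after saline on M36317_s_at. On M23643cds_s_at the ratios were 2.74-fold, 1.96-fold and 1.05-fold. The share of probe sets at 2-fold or more was 1.63%, 1.22% and 0.068% in these pairs. On day 37 M36317_s_at was 1.80-fold higher on the lesion side after transection, beside 1.01-fold after lysolecithin and a log2 difference of -0.31 after saline. M23643cds_s_at differed by 0.11, -0.12 and -0.42 on the log2 scale, and 0.589%, 0.748% and 1.52% of probe sets reached 2-fold. A side difference of 2-fold or more was therefore seen on day 10 alone, after transection on both probe sets and after lysolecithin on M36317_s_at.

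**Figure D2:**
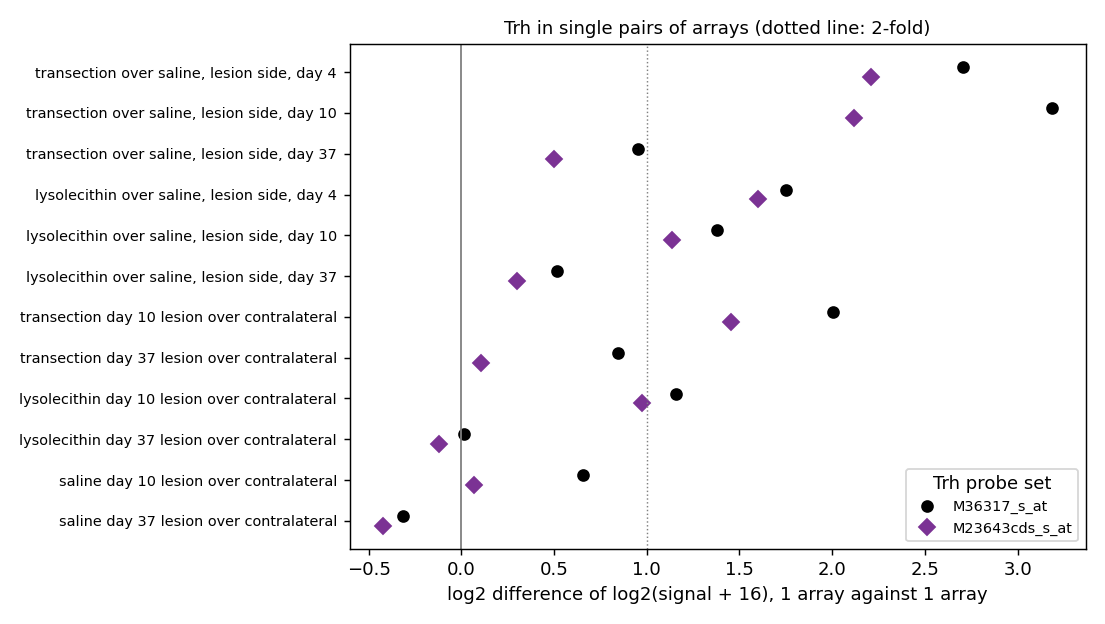
Difference in log2(signal + 16) between single pairs of arrays for M36317_s_at (circles) and M23643cds_s_at (diamonds), with 1 array against 1 array in each row. The dotted line marks 2-fold. The day 4 and day 10 pairs of transection or lysolecithin over saline and the day 10 transection pair of sides lie to its right on both probe sets, and all day 37 pairs lie to its left. The day 10 lysolecithin pair of sides lies on either side of it, at 1.16 and 0.97.

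The contralateral nuclei of the transection experiment had a higher Trh level on day 10 than the other controls. Their M36317_s_at signal of 1394.0 was 3.57-fold that of the saline contralateral array of the same day (378.7) and 3.09-fold that of the healthy control. On M23643cds_s_at the ratios were 1.66-fold and 2.26-fold. Across all probe sets 1.25% and 4.76% reached 2-fold in these pairs. By day 37 the transection contralateral level was 3.04-fold lower on M36317_s_at (448.0) and 1.66-fold lower on M23643cds_s_at (499.4). Of the 4413 tested probe sets 531 (12%) had their highest control signal on this array, so its rank alone is shared by many. Without it, the difference between the transection lesion side and the controls was 2.45 on the log2 scale in place of 2.24.

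The 2 probe sets gave nearly the same pattern. Their log2 signals correlated at Pearson's r = 0.974 and Spearman's rho = 0.847 over 16 arrays, and at r = 0.930 over the 14 arrays without the 2 highest. Over the 7 controls r was 0.876. The arrays share conditions, so these are descriptions. Of 32 pairs of arrays compared, 29 had the same sign on both probe sets, and in 30 the difference was larger on M36317_s_at. A change of 1 in log2 signal on M36317_s_at went with 0.67 on M23643cds_s_at. Each probe set has 16 probe pairs, and both names end in _s_at, which the manufacturer gives to sets whose probes can match more than 1 sequence. Whether they share probes is not known here, so they are not counted as independent measurements of the transcript.

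In RNA from whole nuclei, fewer cells of a type and less RNA per cell cannot be told apart. The tissue was checked by markers. All 6 measured genes of the list for pontine glutamatergic neurons, among them the neurofilament genes and Snap25, were called Present. These 6 are genes of neurons in general, and the vesicular glutamate transporters Slc17a6 and Slc17a7 had no probe set. The list thus shows neurons but not their type. The summed signal of the 6 genes was 35779.9 to 44825.0 on the transection lesion arrays, 43669.6 to 50930.9 on the saline lesion arrays and 40603.2 to 52283.1 on the controls. Of the hypothalamic peptide genes, which mark the best known TRH-bearing region, 10 were measured and 7 were never called Present (Oxt, Pomc, Pmch, Crh, Ghrh, Gnrh1 and Cartpt). Their summed signal was 3122.3 to 4073.6 after transection, 3135.7 to 3637.5 after lysolecithin, 2874.1 to 3425.4 after saline and 3043.1 to 4971.2 on the controls, with the highest values thus on control arrays. Avp, the vasopressin precursor, was 383.3 to 625.5 after transection and 309.0 to 503.7 after lysolecithin. It was 225.7 to 297.8 after saline, below the other lesions, and 299.5 to 853.9 on the controls. In the other listed genes called Present on at least 3 arrays, saline overlapped with both lesions. Hcrt was 422.5 to 706.2 after saline and 567.9 to 859.6 after transection, and Sst 831.8 to 1015.4 and 661.4 to 924.9.

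TRH is also found in serotonergic neurons of the lower brainstem. Of the serotonergic and catecholaminergic markers 9 were measured and 7 were never called Present, among them the serotonin transporter Slc6a4 and tyrosine hydroxylase Th. Their sum was 2447.8 to 3022.0 on the transection lesion arrays and 2759.7 to 4098.6 on the controls. It was 2732.5 to 2901.0 after lysolecithin and 2255.8 to 2822.1 after saline. Fev, also listed, was called Present on 14 arrays. It stood at 417.2, 801.2 and 553.8 on the transection lesion side on days 4, 10 and 37. It was 492.3 to 599.7 after lysolecithin and 366.4 to 594.9 after saline. Contralateral arrays held 518.5 to 612.2 and the healthy control 1098.8. Among lesion arrays Fev was thus highest where Trh was, but on transection day 4 below the contralateral arrays. The 6 measured pituitary genes, marking the tissue TRH acts on, were not called Present on any array by their brightest probe sets. Their sum was 1240.1 to 1467.6 after transection, 1218.4 to 1256.5 after lysolecithin, 758.9 to 1127.4 after saline and 1122.9 to 1649.6 on the controls. Transection and lysolecithin lay above saline here, but in signals not called Present. How often other undetected probe sets do so was not counted. The highest control sum of the 3 lists came from the healthy array, and the highest contralateral sums were 4315.7 (hypothalamic), 3270.5 (serotonergic and catecholaminergic) and 1528.1 (pituitary). No transection lesion array exceeded them. Of the glial lists, microglia summed to 3362.5 to 3783.5 after transection, 3345.7 to 4734.6 after lysolecithin and 2361.8 to 3061.3 after saline. The microglia sum on the controls was 2211.6 to 8581.6. Saline thus lay below both lesions for microglia, within the range of the controls. In the astrocyte and oligodendrocyte lists saline overlapped with both lesions. The part of any of these cell types in the level of Trh was not tested.

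The genes whose levels followed Trh most closely were ranked by Pearson's r with M36317_s_at over the 16 arrays, among 3634 other tested probe sets of 2712 genes. The median r was -0.02, and 9 probe sets (0.248%) exceeded 0.9. Highest were Adcyap1 (r = 0.967), the precursor of the neuropeptide PACAP, Ecel1 (0.958), a membrane peptidase, and the transcription factors Atf3 (0.954) and Jun (0.949). Then came the growth arrest gene Gadd45a (0.920), the stress factor Ddit3 (0.910), the unnamed locus LOC102549726 (0.905), the lysosomal protease Ctsb (0.885), the actin-capping protein Tmod1 (0.871) and the vesicle protein Syt4 (0.869). The other Trh probe set would have stood ahead of all of them. Without the day 4 and day 10 transection lesion arrays r was 0.913 for Adcyap1, 0.904 for Ecel1, 0.870 for Atf3, 0.853 for Jun and 0.696 for Ctsb.

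The values show how close the resemblance was. Adcyap1 stood at 3319.9, 4236.4 and 905.5 on the transection lesion side on days 4, 10 and 37, beside 545.9 to 938.2 on the controls. Ecel1 stood at 1928.4, 2916.4 and 770.7, beside 448.1 to 938.3, and Atf3 at 1897.9, 2519.6 and 386.3, beside 210.8 to 480.9. As for Trh, the early transection signals were above all controls. The day 37 signals were within the control range through the transection day 10 contralateral array alone, and above the other 6 controls for Trh on M36317_s_at, Adcyap1, Ecel1 and Atf3. After lysolecithin on day 4 Trh was 3.37-fold above saline on M36317_s_at, Gadd45a 3.47-fold, Ecel1 2.66-fold, Atf3 2.64-fold and Adcyap1 1.77-fold. On day 10 Gadd45a (4.22-fold) and Atf3 (3.16-fold) were above Trh (2.60-fold), and Ecel1 (2.41-fold) and Adcyap1 (2.20-fold) below it. All 10 genes had their transection and lysolecithin lesion arrays of days 4 and 10 above the other 12 arrays, which the choice by r favours. For Tmod1, called Present on 4 of 16 arrays, the detection filter may favour it as well. The order transection, lysolecithin, saline on all 3 days was shown by 4 of the 10 (Adcyap1, Ecel1, Atf3 and Jun), beside 1.45% of all tested probe sets. For 5 of the 10 (Adcyap1, Ecel1, Atf3, Gadd45a and Syt4) the transection day 10 contralateral array held the highest control signal, beside 12% of all tested probe sets. The choice by r over these same arrays favours both counts, so no excess over those shares is read from them.

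At the other end stood the tyrosine kinase Matk (r = -0.82, called Present on 6 arrays), the activity-regulated gene Arc (-0.80), the neuronal chloride transporter Slc12a5 (-0.80), the mitochondrial pyrophosphatase Ppa2 (-0.80) and lipoprotein lipase Lpl (-0.79). Slc12a5 stood at 1925.0 on the transection day 10 lesion array, beside 4718.9 on the saline array of that day. Without the 2 highest Trh arrays, r was -0.22 for Lpl and -0.74 for Ppa2. Of the 10 genes most like Trh, 7 had a promoter in the RefSeq table: none held TGACCTCA or TGACGTCA, 1 (Ddit3) held TGANTCA, 3 held GGGCGG and 2 held TATAA.

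**Figure D3:**
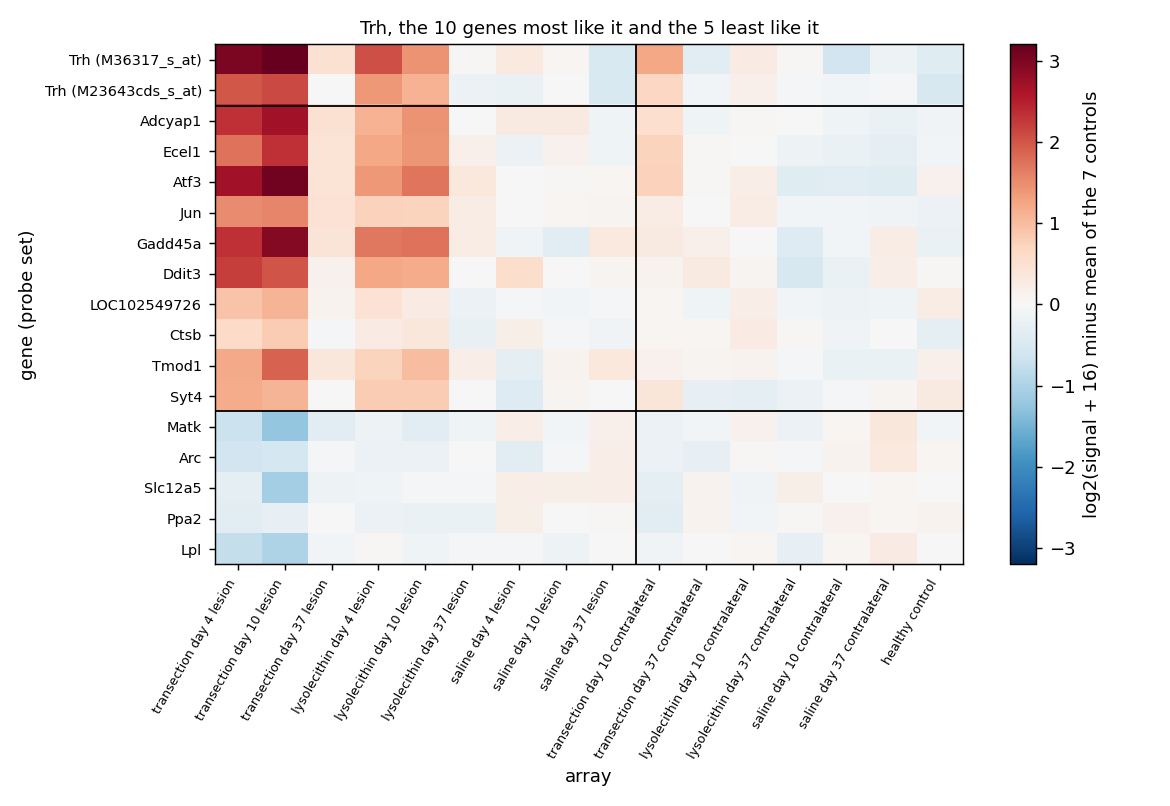
Heat map of log2(signal + 16) minus the mean of the 7 controls for both Trh probe sets, the 10 genes with the highest and the 5 with the lowest Pearson's r with M36317_s_at, with 1 column per array. Columns left of the vertical line are lesion arrays and those right of it are controls. The early transection and lysolecithin columns are red for Trh and the genes like it, and the transection day 10 contralateral column is pale red for Trh, Adcyap1, Ecel1 and Atf3.

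No tested gene of the machinery that makes, stores and receives the peptide passed in any comparison, and few of all probe sets did. Of 58 genes listed for this machinery, 43 had a probe set and 28 were tested, with the brightest probe set standing for each gene. The receptor gene Trhr was not among those tested. A count of 0 among 28 is near the share of all probe sets, so it says little about these genes. With limma and Benjamini-Hochberg adjustment over all 4413 probe sets, 0 of the 28 passed 0.05 for transection against saline, where 0.725% of all probe sets passed. The count was also 0 for lysolecithin against saline (0.159% of all), transection against lysolecithin (0.476%) and transection against the 7 controls (0.0227%). At an unadjusted p under 0.05 there were 4, 8, 5 and 5 of the 28 in these comparisons. By probe set, that share was 11.4%, 22.9%, 20% and 20%, beside 16.9%, 20.6%, 13.6% and 11.0% of all tested probe sets. The median log2 difference of the 28 genes was 0.03, -0.02, -0.01 and -0.05, and that of all probe sets 0.00, 0.02, -0.00 and -0.01.

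Among the 9 tested genes of prohormone processing, Qpct, the glutaminyl cyclase that closes the first residue of TRH, had the highest value. Its difference between the transection lesion side and the controls was 1.20 on the log2 scale (SE 0.38, limma adjusted p = 0.254). That value came from 1 array: Qpct stood at 989.7 on the transection day 10 lesion array and at 91.4 to 191.7 on the other 15, with 168.9 on day 4 and 151.0 on day 37 after transection. It was called Present on 10 of 16 arrays. The array with the highest Qpct signal is also the array with the highest Trh signal, while transection day 4, with the second highest Trh, had a Qpct signal within the range of the others. Pam, the amidating enzyme, had signals of 7168.2, 7707.7 and 5627.7 on days 4, 10 and 37 on the transection lesion side and 4745.2 to 5931.5 on the controls by its brightest probe set. Its difference was 0.36 (SE 0.11, 1.29-fold, limma adjusted p = 0.232), and the other tested Pam probe sets gave 0.49 (adjusted p = 0.257) and 0.44 (0.300). Without the transection day 37 array the differences passed for Qpct (log2 1.66, limma adjusted p = 0.0465) and Pam (0.50, 0.034). In that setting 64 of all tested probe sets passed, beside 1 with all arrays. The Qpct value then rested on signals of 168.9 and 989.7, so again on 1 high array.

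Values that did not pass were also found for the convertases and carboxypeptidases. Between transection and lysolecithin Pcsk5 differed by -0.59 on the log2 scale (SE 0.25, limma adjusted p = 0.336) and against the controls transection differed by -0.35 (SE 0.34, 0.730). Pcsk6 differed by -0.33 between transection and lysolecithin (SE 0.22, 0.546). Cpd, a carboxypeptidase, differed by 0.47 (SE 0.16, 0.150) between lysolecithin and saline. Pcsk1, the convertase best known for the precursor of TRH, had no probe set.

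Of the 7 tested genes of dense-core vesicles, in which the peptide is stored, Chgb (chromogranin B) had the lowest value against saline, -0.56 (SE 0.15, limma adjusted p = 0.108). Its signals after transection were 5338.0, 3162.7 and 5042.6 on days 4, 10 and 37, so the lowest coincided with the highest Trh signal. Scg2 (secretogranin) was 1.32-fold higher after transection than after lysolecithin (log2 0.40, SE 0.13, adjusted p = 0.221) and 1.31-fold higher than on the controls (0.39, SE 0.18, 0.448). Ptprn2, a membrane protein of the vesicles, had -0.65 against the controls (SE 0.22, 0.290) at signals of 47.5 to 173.0. None of these passed.

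The receptor gene Trhr was mostly below detection: D17469_at was called Present on 2 of 16 arrays (signals of 64.2 to 386.9) and S69160_s_at on 0 (313.7 to 717.9). A probe set not called Present gives a bound on the transcript and not its absence. Of the signalling genes, the calcium channel Itpr1 differed by -0.46 between transection and saline (SE 0.21, limma adjusted p = 0.299) and by -0.41 between lysolecithin and saline (SE 0.21, 0.288), and the phospholipase Plcb4 by -0.41 in the latter (SE 0.15, 0.158). The 4 tested genes for transcription factors known to act on the Trh promoter in other tissues were Creb1, Nr3c1, Thra and Rxrb. All 4 were higher after transection than after saline (median log2 difference 0.18), where 50.6% of all tested probe sets were higher. Against the controls 3 of 4 were lower (median -0.13), where 49.1% of all were higher. Counts among 4 genes say little beside these shares, and 0 of 4 had an unadjusted p under 0.05 in either limma comparison. The thyroid hormone receptor gene Thrb, which mediates feedback on Trh in the hypothalamus, was called Present on 2 arrays and not tested. Prl, a pituitary target of TRH, reached the test through 3 Present calls of another probe set (V01244_at) and differed by 0.54 between transection and saline (SE 0.86, 0.784).

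**Figure D4:**
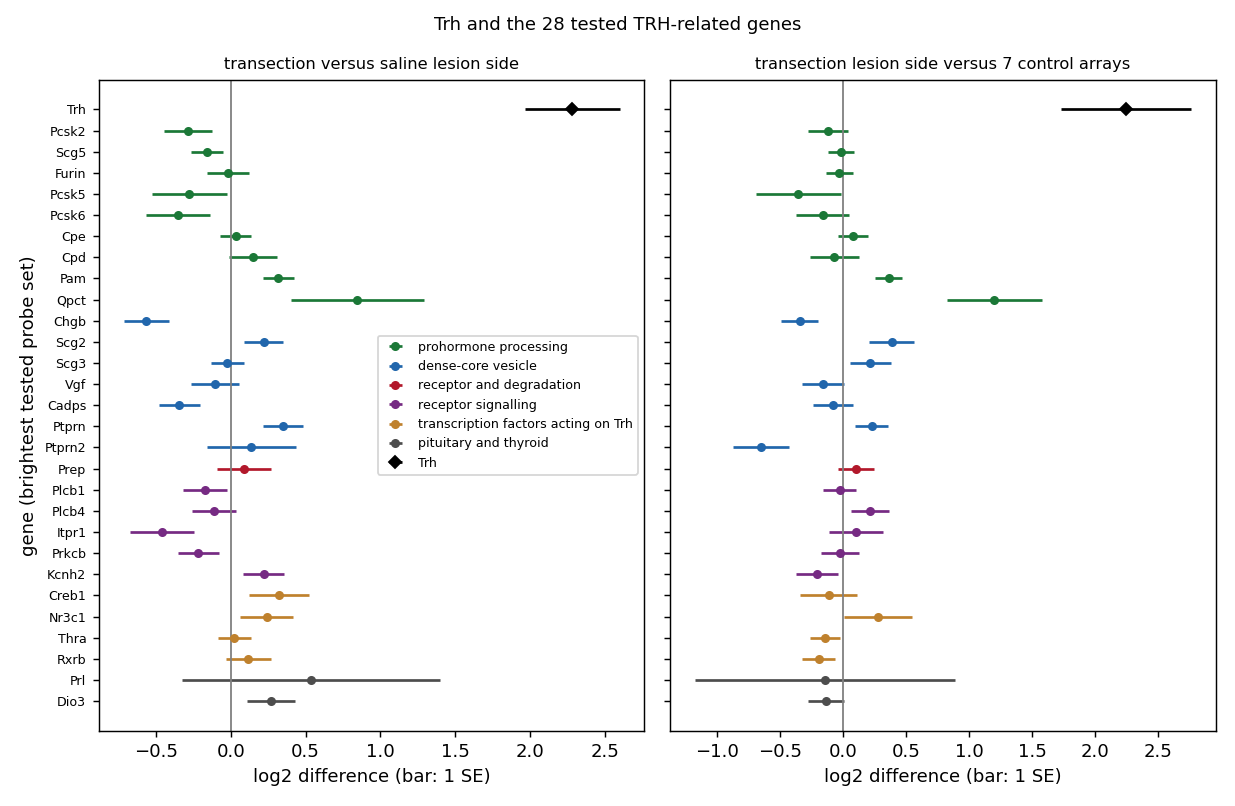
Log2 difference with its SE (bars) from limma for Trh (black diamond, M36317_s_at, without a test) and the 28 tested TRH-related genes, coloured by list, for transection against saline on the lesion side (left) and transection against the 7 controls (right). Trh stands at 2.28 and 2.24, and among the other genes Qpct is highest at 0.85 and 1.20, a value set by 1 array.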

How the data were processed

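Gene expression was measured in total RNA of rat pontine nuclei on 16 Affymetrix arrays, extracted with Trizol and labelled with biotin, per the labels' protocols. MAS5 is named in the submitters' processing notes, without a version. Per the file headers, the deposited values are a signal (a linear intensity), a detection call and its p-value for every probe set. A deposited table of the whole series gives log2 values of 7773 probe sets, made in a way not given in the sources used here. After the mean of each of 3057 probe sets was subtracted, its columns correlated with their own arrays at 0.814 to 0.968 and with another array at no more than 0.495. Column medians were 8.36 to 8.40. It served as an alternative.

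The authors' scaling was kept and log2(signal + 16) was analysed. The filter of 3 Present calls among 16 arrays left 4413 probe sets for the tests. A single symbol was attached to 3636 of them, naming 2713 genes. Over the whole platform 6283 of 8799 probe sets had 1 symbol, 280 several and 2236 none, and 6265 were matched to the RefSeq gene table, which served for names alone. No 2 arrays held the same values. Interventions were compared over the 9 lesion-side arrays in limma, with terms for intervention and for day (4 residual degrees of freedom). The lesion sides were compared with the 7 controls over 16 arrays in 4 groups without a day term (12 residual degrees of freedom). Statistics were moderated with an intensity trend, adjusted by Benjamini-Hochberg over all tested probe sets and read at 0.05. With 1 array per condition the days stand in for replicates, so SEs and p-values rest on the spread among arrays that differ in condition. The code was tested on simulated data.

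Trh, the gene lists and the comparisons were chosen with earlier results of these data known. The named genes were both Trh probe sets, the 10 genes with the highest and 5 with the lowest r, and, of the TRH-related lists, the receptor and the 2 highest and 2 lowest differences in a comparison, taken over genes and over probe sets. Chgb, Scg2 and Pam signals by array, Pam's other probe sets, Pcsk1, Thrb and the 4 transcription factors were named after values were seen. Alternatives were other pseudocounts (1 and 64), no detection filter, no intensity trend, quantile normalization, median centring, the value table, no day term, contralateral controls alone and each array left out. The software was limma 3.58.1 under R 4.3.3, and pandas 2.3.3, numpy 2.4.6 and matplotlib 3.10.9 under Python 3.11.15.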

Additional observations from a re-analysis of the deposited data

Results flagged for a closer look

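The transection day 10 contralateral array lay far above the other controls for Trh and for the 3 genes most like it. On M36317_s_at its signal of 1394.0 stood above the next control, 707.6, by 0.676 of the whole range both among the 7 controls and among the 6 contralateral arrays. This gap is past Dixon's 95% critical value in signal but not in log2 signal, and for a gene chosen on these arrays it is a description and not a test. On M23643cds_s_at the gap among the 6 contralateral arrays was 0.734 of the range in signal (841.7 beside 590.6) and 0.68 in log2 signal. For Adcyap1 it was 0.722 in signal (938.2 beside 655.1) and 0.665 in log2 signal, among 7 and among 6 arrays. For Ecel1 it was 0.73 in signal (938.3 beside 580.6) and 0.652 in log2 signal, again in both groups. For Atf3 it was 0.571 in signal among the 7 controls (480.9 beside 326.8). These are 13 of 104 checks. Chance marks about 1 in 20 independent checks, but these overlap and the genes were chosen on these arrays, so no excess is read from the count. The same array gave all 13, and the genes were chosen for following Trh over these arrays, so the values are not independent of each other.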

How the results depend on the processing

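Every Trh difference between interventions kept its sign under every setting. On M36317_s_at each was positive on all 3 days, so leaving out a day could not change the sign and shows the size alone. For M36317_s_at the mean log2 difference between transection and saline was 1.61 to 2.51 over 6 other settings, the lowest from the second probe set, and 1.83 to 2.95 with a day left out. Between lysolecithin and saline it was 1.01 to 1.52 and 0.95 to 1.57, and between transection and lysolecithin 0.60 to 1.07 and 0.70 to 1.38. Between transection and the controls it was 1.37 to 2.27 over other settings and 1.75 to 3.13 with an array left out; leaving out the transection day 10 contralateral array was chosen after seeing the data. The lesion side exceeded its own contralateral side by 0.78 to 1.56 after transection and 0.43 to 0.61 after lysolecithin, or 0.85 to 2.0 and 0.01 to 1.16 on single days. Against the saline and lysolecithin contralateral arrays of the same day, a reference chosen after seeing the data, the transection value was 1.97. After saline the value was between -0.30 and 0.18, or -0.31 to 0.66 on single days. The count of TRH-related genes past the threshold was 0 under every other setting in all 4 comparisons. With an array left out it was 0 to 2 against the controls and 0 in the other comparisons. The 2 were Qpct and Pam without the transection day 37 lesion array, where 64 of all probe sets passed. Over the left-out arrays the limma adjusted p of Qpct ranged from 0.0465 to 0.684 and its log2 difference from 0.36 to 1.66; for Pam they ranged from 0.034 to 0.668 and from 0.27 to 0.50. Of the 10 genes most like Trh, 6 were shared under Spearman's correlation and 8 under each of the other 3 choices, and 5 (Adcyap1, Atf3, Ddit3, Ecel1 and Jun) stood in every list. Of all probe sets, 32 passed for transection against saline, beside 0 without the filter, the trend or the day term, and 0 to 56 with an array left out. For lysolecithin against saline 7 passed, beside 0 without the day term, 1 without the filter or the trend, 4 with quantile normalization and 1 to 95 with an array left out. For transection against lysolecithin 21 passed, beside 9 with a pseudocount of 1, 6 from the value table, 0 without the filter, the trend or the day term, and 0 to 31 with an array left out. Against the controls 1 passed, beside 6 from the value table, 0 without the filter or the trend, with quantile normalization or with contralateral arrays alone, and 0 to 64 with an array left out. The causes were not tested. The labels give no replicate numbers. Arrays were matched by day, as a term of the lesion-side fits, and by intervention and day for the 2 sides of Trh, as values without a test. No paired analysis was possible for day 4 sides because no contralateral array was analysed there. The number of arrays and dim probe sets such as Trhr set the limits of what could be seen.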
